A study of Rattus norvegicus with 18 samples.

Results

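The comparison described here is the response of cultured rat heart muscle cells to phenylephrine while 50 µM Senexin A was present. Its members are 6 of the 18 libraries of the study, 3 labelled with phenylephrine and 50 µM Senexin A together and 3 labelled with 50 µM Senexin A alone. They were chosen by their labels, and every row of the deposited expression table was compared between them.

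The cells were ventricular cardiomyocytes of Wistar rats, taken at postnatal day 3 and cultured. All cultures, controls included, were first treated with AraC, a drug that kills dividing cells, for 48 h, and were then kept without serum for 24 h. Treatment lasted 48 h and the medium was renewed once, after 24 h. Phenylephrine (PE) was given at 10 µM and Senexin A at 10 or 50 µM. The 6 groups of 3 libraries were Vehicle, PE, 10 µM Senexin A, PE with 10 µM Senexin A, 50 µM Senexin A, and PE with 50 µM Senexin A. Both groups of the comparison carry the inhibitor, so it asks what PE changed in its presence. The same PE contrast without inhibitor, PE against Vehicle, and with 10 µM Senexin A share no library with it and are set beside it.

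PE activates alpha1-adrenergic receptors, which signal through Gq proteins, phospholipase C, protein kinase C and MAP kinases. In neonatal cardiomyocytes this is a standard way to drive hypertrophic growth, in which cells enlarge, add sarcomeres and switch on genes of the fetal heart such as Nppa, Nppb, Acta1 and Myh7. Senexin A inhibits CDK8 and its paralog CDK19, the kinases of a detachable module of Mediator, the complex that links transcription factors to RNA polymerase II.

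With 50 µM Senexin A present, PE still raised genes of mitosis and of sterol synthesis, and it lowered genes of fatty acid oxidation. Most genes of the sarcomere, of oxidative phosphorylation and of the tricarboxylic acid cycle, which PE raised without inhibitor, did not pass the test. Acta1, skeletal alpha-actin, had the largest such difference. Of 10478 rows tested, 1500 were called (14.3%), with 975 higher (9.31%) and 525 lower (5.01%), by limma on log2(FPKM + 1) with a Benjamini-Hochberg adjusted p under 0.05. FPKM is the fragment count of a gene scaled by its length and by the size of the library. At an unadjusted p under 0.05 there were 2923 rows (27.9%), and the 2 groups did not overlap in 2915 rows (27.8%). After quantile normalization 1464 were called, 768 higher and 696 lower, which is 52.5% higher in place of 65.0%. At least 2-fold changes were called in 188 rows (1.79%), 166 higher (1.58%) and 22 lower (0.21%). Leaving out replicate 1 of PE with 50 µM gave 945 calls, a fit of these 6 libraries alone gave 720, and a fit with the replicate number as a block gave 2491.

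**Figure D1:**
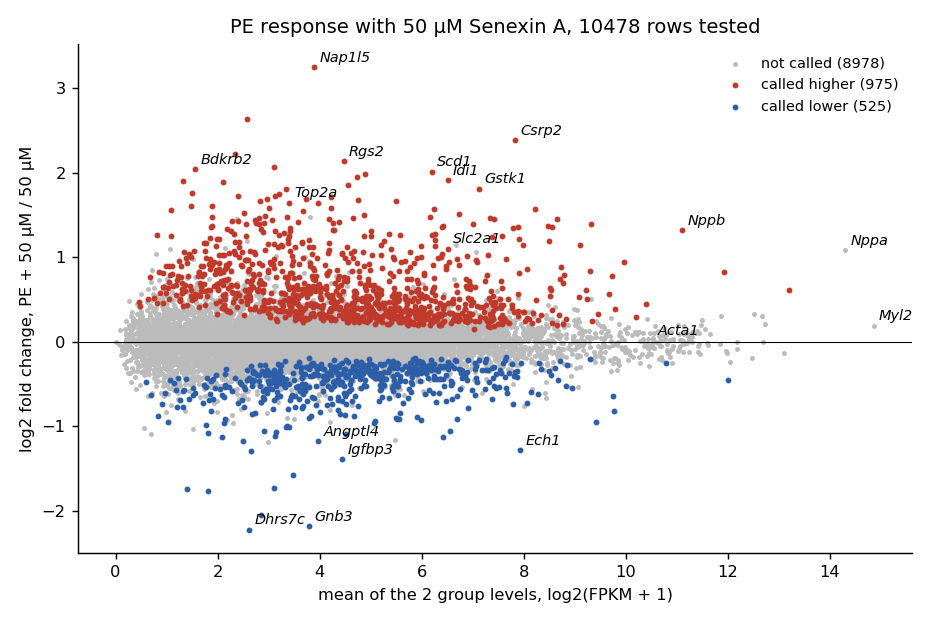
Each point is 1 row of the table. The horizontal axis is the mean level of the 2 groups as log2(FPKM + 1) and the vertical axis is the log2 fold change with PE in the presence of 50 µM Senexin A. Red points were called higher (975), blue points lower (525) and grey points were not called. Nap1l5 had the largest rise, and Acta1 lies on the zero line at a high level.

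Among the marker lists, that of cardiomyocytes had the highest summed level in every library of both groups. The FPKM sums of whole libraries were 755249 to 826406 in the libraries of 50 µM alone and 790067 to 897706 with PE, and the 10 most abundant genes took 11.1% to 13.1% and 13.7% to 15.1% of them. Of 8 tested cardiomyocyte markers, Actn2 and Actc1 were called higher. The call of Actc1 was lost with no filter, in the compared groups alone and without replicate 1 of 50 µM alone (limma adjusted p = 0.098, 0.134 and 0.06). The summed FPKM of the list was 16010 to 22320 with 50 µM alone and 22420 to 28030 with PE. Of 10 tested fibroblast markers 0 were called, and 0 had a positive log2 fold change (median -0.20). Their summed FPKM was lower with PE for each replicate number, at 1188 and 768, 1007 and 645, and 1359 and 1251. With the replicate block 2 were called lower. Of 9 smooth muscle and pericyte markers 2 were called higher, Cnn1 and Cspg4, but 0 without replicate 2 or 3 of 50 µM alone or replicate 1 of PE with 50 µM, and 2 members were called lower with the replicate block, with sums of 1837 to 2871 and 1846 to 2032. Of 6 endothelial, 7 macrophage and 2 Schwann cell markers 0 were called. The macrophage sums ran from 32.2 to 183 with 50 µM alone and from 22.02 to 243 with PE, and replicate 2 was highest in both groups. None of the red cell markers reached 1 FPKM in 3 libraries. Below 1 FPKM in most libraries were also Cdh5, Kdr, Vwf and Cldn5 of endothelium, Adgre1 and Mrc1 of macrophages, and Sox10 of Schwann cells. The part of these levels in the results was not tested. In bulk RNA, fewer cells of a type and less RNA per cell cannot be told apart.

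**Figure D2:**
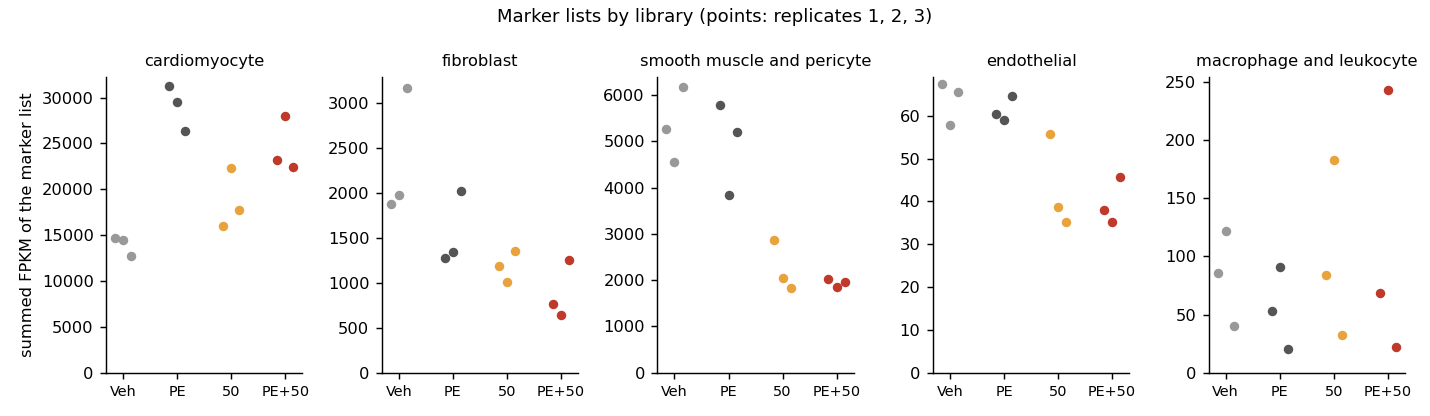
Each panel shows the summed FPKM of a marker list, with 1 point per library, in Vehicle (Veh), PE, 50 µM Senexin A (50) and PE with 50 µM (PE+50). Cardiomyocyte sums were 16010 to 22320 with 50 µM alone and 22420 to 28030 with PE. The fibroblast sums of the 50 µM groups overlapped but were lower with PE for each replicate number, and the smooth muscle sums overlapped.

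The lists that moved together have promoters that can be read beside the values. RefSeq promoters, 250 bases before and 50 after each annotated start in the GRCr8 build, were found for 18 of the 22 tested mitosis genes. The cell cycle homology region (CHR, TTTGAA) is an element of G2 and M phase genes, and the CCAAT box is bound by NF-Y. Both were searched on both strands. The 3 sequences below belong to mitosis genes with some of the largest rises, and capitals mark CHR and CCAAT matches.
Top2a, chr10:84473044-84473343, minus strand: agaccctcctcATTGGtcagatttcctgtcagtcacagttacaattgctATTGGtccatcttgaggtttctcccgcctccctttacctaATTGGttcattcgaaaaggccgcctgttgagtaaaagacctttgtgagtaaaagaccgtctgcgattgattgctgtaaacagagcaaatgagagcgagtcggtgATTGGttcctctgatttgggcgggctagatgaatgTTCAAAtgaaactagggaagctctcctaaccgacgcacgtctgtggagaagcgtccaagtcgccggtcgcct
Nusap1, chr3:127057045-127057344, plus strand: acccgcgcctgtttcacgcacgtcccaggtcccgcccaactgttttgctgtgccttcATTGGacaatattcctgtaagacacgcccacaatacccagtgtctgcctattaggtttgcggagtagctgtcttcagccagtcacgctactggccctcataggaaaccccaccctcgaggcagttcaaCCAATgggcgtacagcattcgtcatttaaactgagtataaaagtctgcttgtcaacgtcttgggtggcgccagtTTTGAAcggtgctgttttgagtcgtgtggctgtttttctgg
Ect2, chr2:111966577-111966876, minus strand: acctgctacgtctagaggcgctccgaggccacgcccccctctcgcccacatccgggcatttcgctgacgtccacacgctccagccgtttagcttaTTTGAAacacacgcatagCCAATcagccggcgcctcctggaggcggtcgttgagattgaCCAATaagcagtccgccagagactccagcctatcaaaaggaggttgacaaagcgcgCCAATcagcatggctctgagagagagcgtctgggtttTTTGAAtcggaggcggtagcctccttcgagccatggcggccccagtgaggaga

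A CHR match lay in 13 of the 18 mitosis promoters (72.2%) and in 18.07% of all 27457 promoters of this length. A CCAAT match lay in 15 of the 18 (83.3%) and in 37.7% of all. A match is a run of letters and not a tested binding site. The list was chosen for its part in mitosis, so these shares describe the list and are no result of the PE response. The promoters of the tested rows were not counted apart from all promoters.

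All 22 tested members of the mitosis and cytokinesis list rose with PE in the presence of 50 µM Senexin A, and all 22 were called under each of the 13 alternative settings. Their median log2 fold change was 1.08, where the median of all rows tested was 0.01. Top2a, the topoisomerase that untangles chromosomes, stood at 5.62, 5.45 and 3.95 FPKM with 50 µM alone and at 19.8, 16.5 and 16.7 FPKM with PE. The groups lay far apart, and the change was 1.64 ± 0.14 on the log2 scale (SE; limma adjusted p = 2.6e-06). Ube2c, a ubiquitin-conjugating enzyme of the anaphase-promoting complex, stood at 17.6, 12.7 and 5.33 FPKM and rose to 50.2, 38.6 and 36.4 FPKM (1.85 ± 0.27, adjusted p = 0.00027). Replicate 3 of 50 µM alone was the lowest of its group for Ube2c and Top2a. Nusap1, a spindle protein, rose by 1.48 ± 0.16 (adjusted p = 1.6e-05), and Ect2, which activates RhoA at the cleavage furrow, by 1.47 ± 0.13 (adjusted p = 3.2e-06). The other 18 members rose by 0.73 (Aurkb) to 1.43 (Ccnb1).

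These rises began from low levels. In all 22 members the mean with 50 µM alone was below the Vehicle mean, and in all 22 the mean in PE with 50 µM was still below the Vehicle mean. The median of the members' means was 19.1 FPKM in Vehicle, 32.8 in PE, 4.90 with 50 µM alone and 12.3 in PE with 50 µM. Without inhibitor 21 of the 22 rose with PE, with a median log2 fold change of 0.76. The response itself was larger at 50 µM than without inhibitor for Top2a (difference 0.97 ± 0.20, limma adjusted p = 0.0093) and Nusap1 (0.98 ± 0.22, adjusted p = 0.016). For the other 20 members the test of the difference did not pass. With 10 µM all 22 were called higher, with a median of 1.19. The difference between the responses at 50 and 10 µM was called for 0 of the 22, where 2.99% of all rows were called.

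Genes of DNA replication moved less. Of 22 tested members 5 rose and 0 fell, and 8 rose with the replicate block (median 0.28). Their levels were low too: all 22 means with 50 µM alone, and 21 in PE with 50 µM, were below the Vehicle mean. The median of the means was 26.4 FPKM in Vehicle, 24.7 in PE, 8.21 with 50 µM alone and 9.01 in PE with 50 µM. Rrm2, a subunit of ribonucleotide reductase, rose from 18.6, 18.3 and 12.6 FPKM to 58.4, 47.8 and 39.2 FPKM (1.5 ± 0.18, adjusted p = 5.1e-05). Mcm5, part of the replicative helicase, rose by 0.67 ± 0.14 (limma adjusted p = 0.0048), where without inhibitor its change was -0.19 (adjusted p = 0.33). The difference between those responses passed at 0.86 ± 0.20 (limma adjusted p = 0.019), but not without PE replicate 1 (0.053) or without replicate 2 of 50 µM alone (0.0501). Pcna, the sliding clamp, changed by 0.14 and was not called. Among 13 G1 cyclins and CDK inhibitors, Cdkn2c, the inhibitor p18, rose by 0.91 ± 0.14 (adjusted p = 0.0005) and Cdkn1a, the inhibitor p21, fell by 0.37 ± 0.10 (limma adjusted p = 0.024). The call of Cdkn1a was lost without replicate 2 or 3 of 50 µM alone and without replicate 1 or 3 of PE with 50 µM (limma adjusted p = 0.0566 to 0.101).

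Sterol and fatty acid synthesis, the pathway that makes cholesterol and lipids under the control of SREBP transcription factors, was the other list that rose nearly whole. Of 28 tested members 24 rose and 0 fell, with 20 to 26 called over the alternatives and a median log2 fold change of 1.04. Idi1, which isomerises isopentenyl diphosphate, stood at 23.3, 50.12 and 70.5 FPKM with 50 µM alone and at 137, 185 and 183 FPKM with PE. The 3 libraries without PE differed widely among themselves, yet all lay below the libraries with PE (1.91 ± 0.25, adjusted p = 0.00012). Scd1, the stearoyl-CoA desaturase, had the same order, with 16.0, 33.8 and 64.9 FPKM against 122, 122 and 167 FPKM (2.01 ± 0.35, limma adjusted p = 0.001). Stard4, a cholesterol carrier, rose by 1.58 ± 0.25 (adjusted p = 0.00062) and Dhcr7, the last enzyme of the cholesterol pathway, by 1.40 ± 0.25 (adjusted p = 0.0011). Not called were Srebf1 (0.05), Srebf2 (0.25), Acaca (0.32) and Elovl6 (0.43).

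Without inhibitor 25 of the 28 were called higher and the median was 1.01. The test of the difference was passed downward by 4 members and upward by 0, against 4.76% and 2.24% of all rows. Of the 28 means, 24 were higher with 50 µM alone than in Vehicle. The promoter of Idi1 is shown because it had the second largest rise of this list, with CCAAT matches in capitals.
Idi1, GRCr8 chr17:66547475-66547774, minus strand: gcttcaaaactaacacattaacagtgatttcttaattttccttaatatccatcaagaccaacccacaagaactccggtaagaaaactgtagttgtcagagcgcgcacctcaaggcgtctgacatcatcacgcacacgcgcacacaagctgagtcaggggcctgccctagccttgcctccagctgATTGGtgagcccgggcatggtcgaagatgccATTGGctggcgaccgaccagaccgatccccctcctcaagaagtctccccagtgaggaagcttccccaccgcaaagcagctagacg

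Of 18 promoters found for the list, 15 held CCAAT (83.3%) and 2 held the sterol regulatory element, searched as TCACNCCA on both strands (11.1%, against 3.91% of all promoters). The row of Idi1 overlaps another row of the table, as do those of Srebf1 and Srebf2, so their levels are uncertain.

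The fetal and hypertrophic genes answered PE less with 50 µM Senexin A than without. Of 11 tested members 3 rose and 0 fell (Nppb, Ankrd1 and Fhl1), 6 with the replicate block, and the median log2 fold change was 0.78, with 0.035 after quantile normalization. Without inhibitor 10 of the 11 rose, with a median of 1.69. The starting levels differed too: the mean with 50 µM alone was above the Vehicle mean in 8 members and below it in 3. The median of the members' means was 181 FPKM in Vehicle, 2655 in PE, 363 with 50 µM alone and 334 in PE with 50 µM. The difference between the responses was called lower for 7 of the 11, against 4.76% of all rows. Ankrd1 was among them, and its difference kept the call in 8 of 19 alternatives.

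Acta1 (rn5 chr19:67389898-67392911) stood at 1333, 1683 and 1396 FPKM with 50 µM alone and at 1534, 1627 and 1309 FPKM with PE. The groups overlapped (0.02 ± 0.18, limma adjusted p = 0.96). Without inhibitor Acta1 rose from 219, 170 and 155 FPKM to 3395, 3002 and 2837 FPKM (4.09 ± 0.18, adjusted p = 1.1e-09), and with 10 µM it rose by 2.25 ± 0.18 (adjusted p = 5.6e-07). The response at 50 µM was lower than that without inhibitor by -4.07 ± 0.25 (adjusted p = 1.3e-07) and lower than that at 10 µM by -2.23 ± 0.25 (adjusted p = 0.00048). Its level with 50 µM alone lay above all 3 Vehicle libraries and below all 3 PE libraries. Its promoter is printed because it holds a match to the CArG box, the site of serum response factor, and to the MCAT element (CATTCC), the site of TEAD factors, both in capitals.
Acta1, GRCr8 chr19:68784145-68784444, minus strand: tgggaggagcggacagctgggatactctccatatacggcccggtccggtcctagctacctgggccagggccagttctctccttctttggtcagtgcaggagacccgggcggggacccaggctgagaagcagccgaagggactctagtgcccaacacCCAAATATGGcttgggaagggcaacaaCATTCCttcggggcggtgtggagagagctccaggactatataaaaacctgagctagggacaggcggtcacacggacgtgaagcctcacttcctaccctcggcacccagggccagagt

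A CArG match lay in 2 of 10 promoters of the fetal list (20%), in 4 of 22 of the sarcomere list (18.2%) and in 1.64% of all promoters. An MCAT match lay in 3 and 5 of them, and in 13.9% of all promoters.

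Nppb, which encodes B-type natriuretic peptide, rose from 1254, 1838 and 1147 FPKM to 3451, 3929 and 3027 FPKM (1.32 ± 0.33, limma adjusted p = 0.013). The groups did not overlap, and the call was lost without replicate 3 of 50 µM alone (0.0509). Its response without inhibitor was 3.37 ± 0.33, and the difference of -2.05 ± 0.46 passed (limma adjusted p = 0.014), but not after quantile normalization (0.0602). Nppa, atrial natriuretic peptide, stood at 15580, 13800 and 12170 FPKM against 29710, 31760 and 26220 FPKM. Its groups did not overlap either, but the change of 1.08 ± 0.45 did not pass (limma adjusted p = 0.13). It passed with the replicate block (0.0358) and in the compared groups alone (0.0285). Fhl1, a muscle LIM domain protein, was called higher by 0.78 ± 0.14 (adjusted p = 0.0013), and its response was 2.01 below that without inhibitor (difference -2.01 ± 0.20, adjusted p = 3.3e-05). Ankrd1, a stretch-responsive muscle protein, rose by 0.83 ± 0.17 (limma adjusted p = 0.0044), which was 0.052 in the compared groups alone. Xirp2, a protein of the intercalated disc, went from 10.6, 16.3 and 16.1 FPKM to 29.1, 21.8 and 24.1 FPKM (0.78 ± 0.26, limma adjusted p = 0.06). It passed with the replicate block (0.0251).

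The slow myosin heavy chain Myh7 stood at 44.4, 37.1 and 104 FPKM with 50 µM alone and at 141, 43.1 and 312 FPKM with PE. The groups overlapped and the change of 1.14 ± 0.50 did not pass (limma adjusted p = 0.14, with 0.0449 in the fit with the replicate block and 0.00422 without replicate 2 of PE with 50 µM). The 3 Vehicle libraries held 1089, 916 and 935 FPKM. Myh6, the fast chain, changed by 0.02 ± 0.69 (adjusted p = 0.99). The pair are near-identical paralogs and their rows overlap other rows, so both levels are uncertain. Atp2a2, the calcium pump of the sarcoplasmic reticulum, changed by -0.12 ± 0.19 (adjusted p = 0.75).

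**Figure D3:**
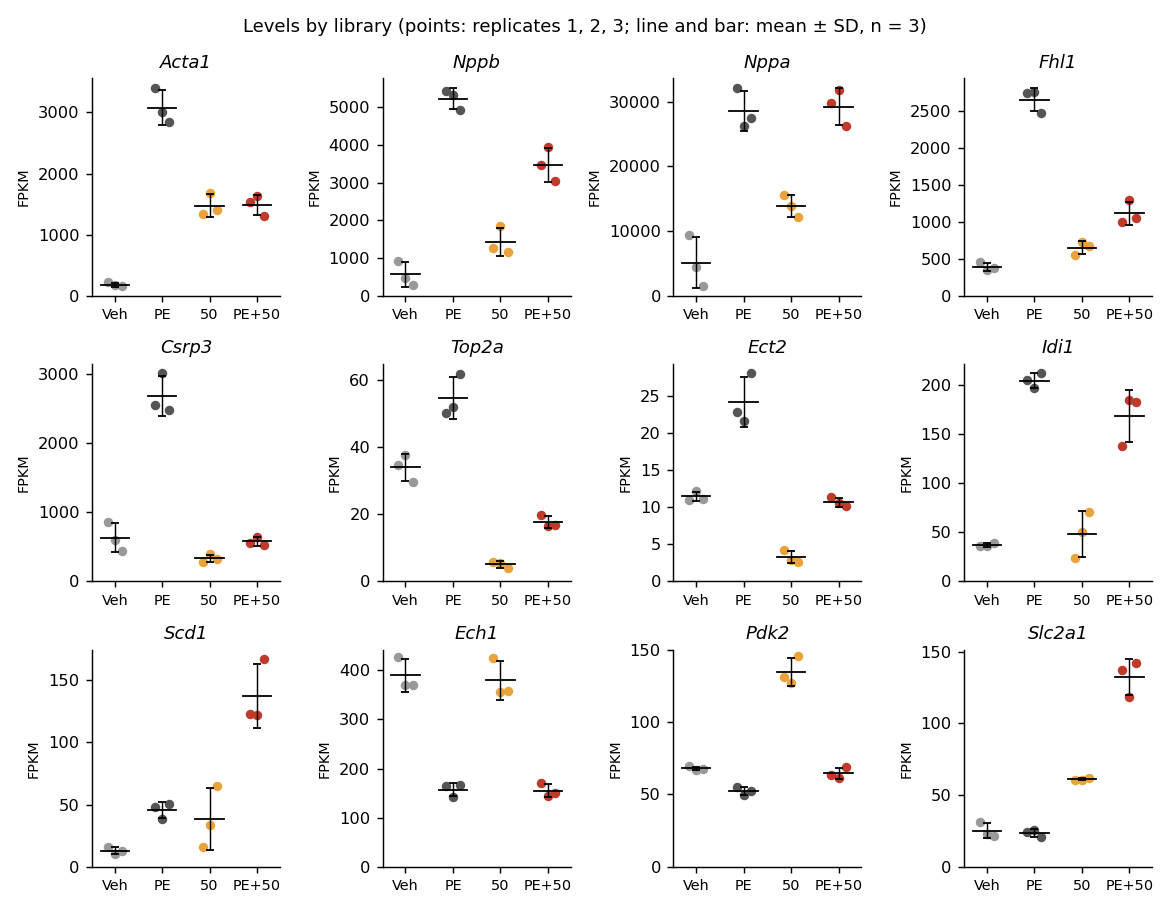
FPKM of 12 genes in each library of Vehicle (Veh), PE, 50 µM Senexin A (50) and PE with 50 µM (PE+50). Points are replicates and the line and bar are the mean ± SD of 3. The Acta1 points of the 50 µM groups overlap, those of Top2a, Ect2, Idi1, Scd1 and Slc2a1 are higher with PE, and those of Ech1 and Pdk2 are lower.

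Of 25 tested sarcomere genes, which encode the contractile machinery, 6 rose and 0 fell, and 11 rose and 2 fell with the replicate block. The median log2 fold change was 0.22. Without inhibitor 19 of the 25 rose, with a median of 0.91. In 17 members the mean with 50 µM alone was below the Vehicle mean, and in 8 it was above. The median of the members' means was 565 FPKM in Vehicle, 756 in PE, 335 with 50 µM alone and 336 in PE with 50 µM. The difference was called lower for 9, against 4.76% of all rows, and that of Actc1 was lost after quantile normalization (limma adjusted p = 0.365). Myoz2, a calcineurin-binding Z-disc protein, rose from 145, 195 and 169 FPKM to 388, 353 and 378 FPKM (1.14 ± 0.10, adjusted p = 2.7e-06). Des, the intermediate filament desmin, rose by 0.84 ± 0.16 (adjusted p = 0.0017) and Pdlim5 of the Z-disc by 0.63 ± 0.07 (adjusted p = 2.3e-05). Csrp3, the muscle LIM protein, rose by 0.79 ± 0.20 (limma adjusted p = 0.013), and not without replicate 1 of 50 µM alone (0.0611) or replicate 2 of PE with 50 µM (0.0526). Its response without inhibitor was 2.13 ± 0.20, and the difference passed (-1.34 ± 0.28, adjusted p = 0.0089). The ventricular light chains Myl2 (0.19) and Myl3 (-0.02) and the troponin Tnni3 (0.11) were not called, where without inhibitor they rose by 1.23, 1.65 and 0.74.

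Oxidative phosphorylation, the respiratory chain and ATP synthase of mitochondria, was a list on which the responses parted. Without inhibitor 28 of 35 tested members rose and 1 fell, with a median of 0.61. With 50 µM present 0 rose and 1 fell (6 fell after quantile normalization, 4 without replicate 2 of PE with 50 µM, and 3 with the replicate block), with a median of -0.09. The difference was called lower for 19 members and higher for 0, against 4.76% and 2.24% of all rows. The member that fell was Cox8b, a subunit of cytochrome c oxidase, from 903, 1106 and 826 FPKM to 426, 550.4 and 493 FPKM (-0.94 ± 0.14, adjusted p = 0.00028). In all 35 members the mean with 50 µM alone was above that of Vehicle. The median of the means was 336 FPKM in Vehicle, 531 in PE, 556 with 50 µM alone and 499 in PE with 50 µM.

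The tricarboxylic acid cycle and pyruvate dehydrogenase list had the same shape. Of 19 tested members 1 rose and 1 fell (3 rose with the replicate block, and 4 fell after quantile normalization), against 16 and 1 without inhibitor. The difference was called lower for 9, against 4.76% of all rows. In 18 of the 19 members the mean with 50 µM alone was above the Vehicle mean. The median of the members' means was 139 FPKM in Vehicle, 215 in PE, 188.7 with 50 µM alone and 189 in PE with 50 µM. Pdk2, a kinase that switches pyruvate dehydrogenase off, stood at 131, 127 and 145 FPKM and fell to 63.6, 61.1 and 69.0 FPKM (-1.05 ± 0.07, adjusted p = 3.5e-07). This was a larger fall than without inhibitor (difference -0.68 ± 0.10, adjusted p = 0.00091) and than with 10 µM (-0.65 ± 0.10, adjusted p = 0.0058). Pdha1, a subunit of the enzyme itself, rose by 0.70 ± 0.12 (adjusted p = 0.00082). Its difference from the response without inhibitor was called lower, but kept the call in only 7 of 19 alternatives.

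Fatty acid uptake and oxidation went down. Of 31 tested members 15 fell and 0 rose (median -0.41), and 9 to 20 fell over the alternatives, with 9 in the compared groups alone and 9 without replicate 3 of PE with 50 µM. Without inhibitor 7 rose and 5 fell, with a median of 0.13, where 17.9% of all rows rose and 12.7% fell. The difference was called lower for 7, against 4.76% of all rows. In 22 of the 31 members the mean with 50 µM alone was above the Vehicle mean, and in 9 it was below. In PE with 50 µM the mean was below the Vehicle mean in 10 of the 31. It was above the mean of PE without inhibitor in 19 and below it in 12. The median of the means was 97.99 FPKM in Vehicle, 96.44 in PE, 158.5 with 50 µM alone and 115.1 in PE with 50 µM. Ucp3, a mitochondrial carrier of muscle, stood at 4.56, 3.85 and 3.08 FPKM with 50 µM alone and at 0.447, 0.538 and 0.327 FPKM with PE (-1.74 ± 0.17, adjusted p = 5.3e-06). In Vehicle it was at or below 0.105 FPKM. The difference from the response without inhibitor was -1.68 ± 0.23 (adjusted p = 0.00075), with 0.056 at a pseudocount of 0.1. Acot2, a mitochondrial acyl-CoA thioesterase, stood at 373, 300.3 and 352 FPKM with 50 µM alone and fell to 253, 215 and 159 FPKM (-0.73 ± 0.17, limma adjusted p = 0.0098). In Vehicle it stood at 19.5, 19.2 and 12.2 FPKM, so that PE with 50 µM remained above it. Plin5, a coat protein of lipid droplets, fell by 0.99 ± 0.17 (adjusted p = 0.00089). Angptl4, which blocks lipoprotein lipase, fell by 1.17 ± 0.22 (adjusted p = 0.0018). Smaller falls were called for the fatty acid transporter Cd36 (-0.60, a row that overlaps another), the carnitine enzymes Cpt1b (-0.41) and Cpt2 (-0.47), and the dehydrogenase Acadl (-0.45). Acadm (0.45) and Acsl1 (0.18) were not called.

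Glucose uptake and glycolysis went both ways. Of 22 tested members 4 rose and 4 fell. The number that rose was 8 with the replicate block, 7 under quantile normalization, and the number that fell was 2 without replicate 2 of PE with 50 µM. Slc2a1, the glucose transporter GLUT1, stood at 60.5, 60.8 and 62.0 FPKM and rose to 137, 118 and 142 FPKM (1.10 ± 0.12, adjusted p = 2.6e-05). Without inhibitor it changed by -0.08 (adjusted p = 0.66), and the difference passed (1.18 ± 0.18, limma adjusted p = 0.0011). Eno3, the muscle enolase, rose by 1.19 ± 0.18 (adjusted p = 0.00028), less than without inhibitor (2.58 ± 0.18, difference -1.39 ± 0.25, adjusted p = 0.0037). Pgam2, the muscle phosphoglycerate mutase, fell by 1.13 ± 0.29 (limma adjusted p = 0.016), which was not called without replicate 1 of 50 µM alone (0.057) or replicate 2 of PE with 50 µM (0.0655). Pfkp, a phosphofructokinase, rose by 0.86 ± 0.19 (adjusted p = 0.0066), and Ldha rose by 0.50 while Ldhb fell by 0.64.

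**Figure D4:**
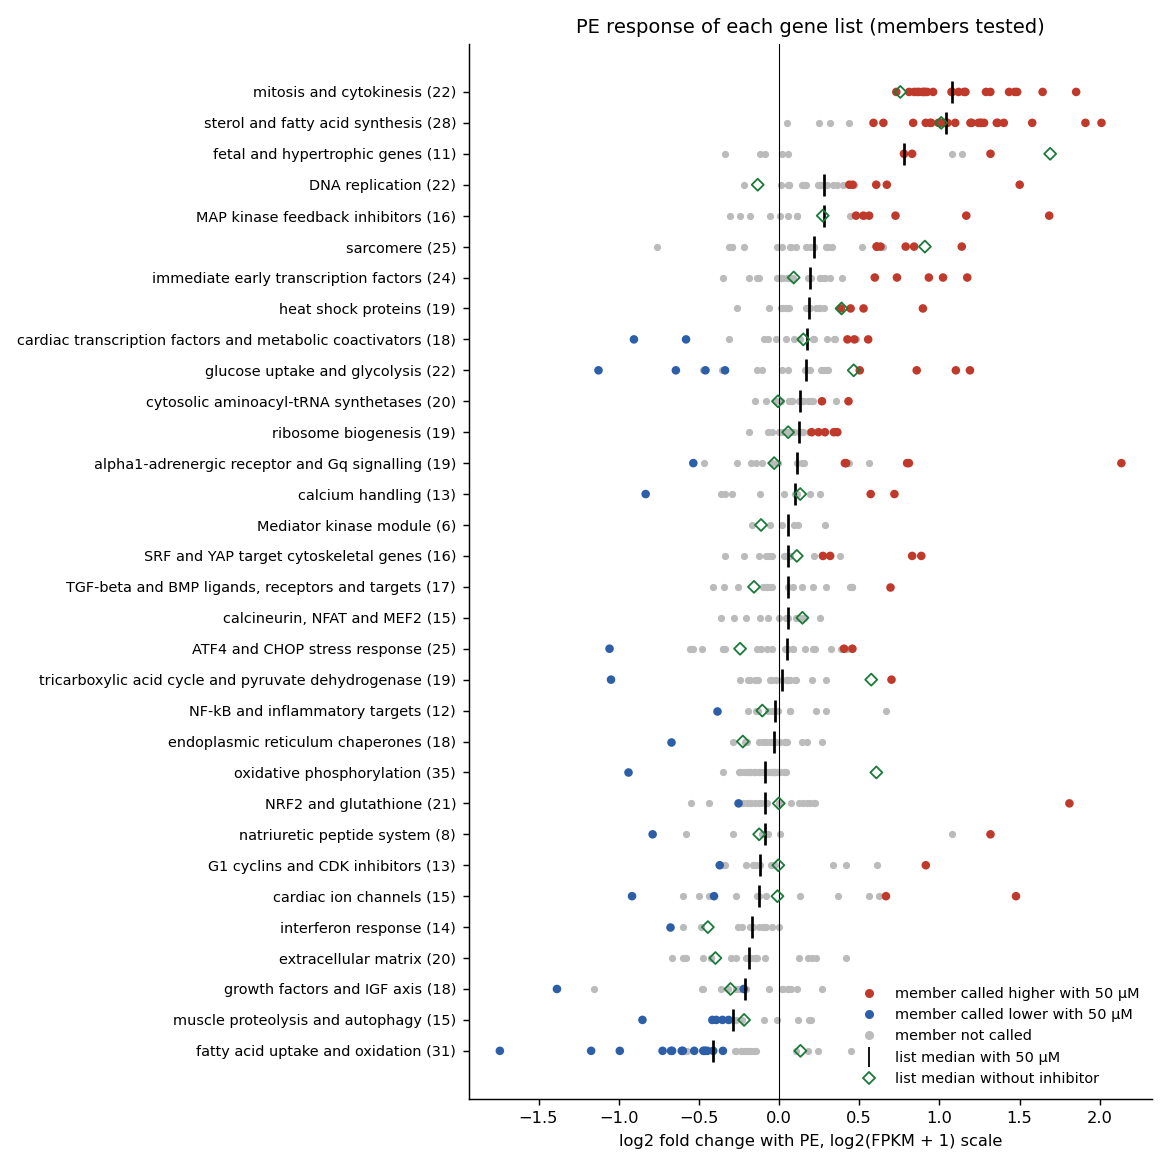
Each row is a gene list with the number of its tested members. Points are members at their log2 fold change with PE in the presence of 50 µM Senexin A, red where called higher, blue where called lower and grey otherwise. Black bars are the list medians and green diamonds the medians of the same members without inhibitor. Mitosis (median 1.08) and sterol synthesis (1.04) lie furthest right and fatty acid oxidation (-0.41) furthest left.

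The receptor and its signalling were measured next. Of 19 tested genes of alpha1-adrenergic and Gq signalling 5 rose and 1 fell. Rgs2, which speeds the shutdown of Gq, stood at 10.8, 10.4 and 7.63 FPKM and rose to 42.2, 51.8 and 42.2 FPKM (2.13 ± 0.20, limma adjusted p = 5.3e-06). Its row, rn5 chr13:65556706-65833989, overlaps another row, so its level is uncertain. Its response was larger than without inhibitor by 1.06 ± 0.29 (limma adjusted p = 0.037), a call lost in 11 of 19 alternatives. Grk5, a kinase that desensitises receptors, rose by 0.81 ± 0.10 (adjusted p = 4e-05), against 0.24 without inhibitor (difference 0.57 ± 0.13, limma adjusted p = 0.019, and 0.0506 to 0.0546 without each of 4 libraries: PE replicate 2, replicate 2 of 50 µM alone, and replicates 1 and 3 of PE with 50 µM). Adra1a, an alpha1 receptor, rose by 0.80 ± 0.25 (limma adjusted p = 0.04), which did not pass in 7 of 13 alternatives.

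Of 16 tested MAP kinase feedback inhibitors 6 rose and 0 fell, with 2 to 8 over the alternatives and 2 without replicate 2 of 50 µM alone or replicate 1 of PE with 50 µM. Dusp4, a nuclear phosphatase of MAP kinases, rose from 8.57, 6.33 and 4.48 FPKM to 30.6, 19.2 and 18.9 FPKM (1.68 ± 0.21, adjusted p = 7.2e-05). Dusp5 rose by 1.17 ± 0.27 (limma adjusted p = 0.0075), where without inhibitor it changed by -0.04. The difference of 1.21 ± 0.38 did not pass (limma adjusted p = 0.063). Of 24 immediate early transcription factors 5 rose and 0 fell, 9 with the replicate block and 3 without replicate 2 or 3 of 50 µM alone or replicate 3 of PE with 50 µM. They were led by the orphan receptor Nr4a3 (1.17 ± 0.18, adjusted p = 0.00038), Fos (1.02 ± 0.29, limma adjusted p = 0.025, lost without any library of the comparison but replicate 1 of 50 µM alone, at 0.0559 to 0.0914) and Ier3 (0.93 ± 0.15, adjusted p = 0.00065). Of 15 calcineurin, NFAT and MEF2 genes 0 were called, where 14.3% of all rows were. Without inhibitor 5 were called higher and 1 lower, against 17.9% and 12.7% of all rows. The difference between those responses was called lower for 1 of the 15 and higher for 0, against 4.76% and 2.24% of all rows. Rcan1, the feedback inhibitor of calcineurin, changed by -0.12, where without inhibitor it rose by 1.24.

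Of 16 SRF and YAP targets 4 rose, with 0 in the compared groups alone, 1 after quantile normalization and 2 without replicate 3 of 50 µM alone or replicate 2 of PE with 50 µM. Of 19 heat shock genes 4 rose, 10 with the replicate block and 2 in the compared groups alone, among them Hspb3 (0.90 ± 0.16, adjusted p = 0.001) and Hspb1 (0.53 ± 0.10, adjusted p = 0.0019), the small heat shock proteins. Of 20 extracellular matrix genes 0 were called, and 7 fell with the replicate block, beside 2 of 10 fibroblast markers in that fit. Of 15 genes of muscle proteolysis and autophagy 5 fell, and 3 without replicate 3 of 50 µM alone or replicate 1 of PE with 50 µM. They included Foxo1, the transcription factor behind muscle atrophy genes (-0.85 ± 0.13, adjusted p = 0.00044), and Trim63, the ubiquitin ligase MuRF1 (-0.35 ± 0.08, adjusted p = 0.0048). Klf15, a transcription factor of lipid use in heart, fell by 0.91 ± 0.17 (adjusted p = 0.0017). The kinases and partners that the inhibitor addresses were not called. Cdk8 changed by 0.29 ± 0.11 (limma adjusted p = 0.1, and 0.0161 without replicate 3 of PE with 50 µM), Cdk19 by -0.17, Ccnc by 0.09, Med12 by -0.06 and Med13 by 0.02.

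The largest rises among named genes were outside most of these lists. Nap1l5, a nucleosome assembly protein-like gene, stood at 3.29, 4.06 and 4.12 FPKM with 50 µM alone and at 45.2, 48.4 and 40.6 FPKM with PE (3.25 ± 0.12, adjusted p = 1.3e-10). All 12 libraries of the other groups lay at 3.68 to 12.4 FPKM. Without inhibitor it rose by 0.44 ± 0.12 (adjusted p = 0.014) and with 10 µM by 1.15 ± 0.12 (adjusted p = 8.4e-06), and both differences passed (2.81 ± 0.17, adjusted p = 1.3e-07, and 2.09 ± 0.17, adjusted p = 2e-05). Its row, rn5 chr4:153899766-153990202, overlaps another row and is uncertain.

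Csrp2, a LIM protein of smooth muscle, rose from 94.0, 115 and 86.0 FPKM to 461, 613 and 479 FPKM (2.38 ± 0.21, adjusted p = 2.6e-06). Its responses without inhibitor (0.97) and with 10 µM (0.54) were smaller, and both differences passed (1.41 ± 0.29, adjusted p = 0.0086, and 1.84 ± 0.29, adjusted p = 0.0058). The response with 10 µM began from a higher level, with means of 283 FPKM with 10 µM alone and 413 in PE with 10 µM. The means were 61.0 FPKM in Vehicle and 123 in PE. Neil2, a DNA glycosylase of base excision repair, rose from 1.05, 2.35 and 0.88 FPKM to 13.96, 12.4 and 14.4 FPKM (2.63 ± 0.20, adjusted p = 5.4e-07). Gda, guanine deaminase, rose by 2.22, Lppr5 by 2.06, Bdkrb2, the bradykinin B2 receptor, by 2.04, Phlda1 by 1.98 and Ptgis, prostacyclin synthase, by 1.95. Without inhibitor Gda rose by 1.116, Lppr5 by 1.341, Bdkrb2 by 2.325, Phlda1 by 1.552 and Ptgis by 1.037. Their differences from those responses did not pass (limma adjusted p = 0.087 to 0.58). Gstk1, a glutathione transferase, was the member of 21 NRF2 and glutathione genes that rose, from 69.9, 70.5 and 78.3 FPKM to 207, 317 and 261 FPKM (1.81 ± 0.19, adjusted p = 1.1e-05). Without inhibitor it changed by 0.11, and the difference was 1.70 ± 0.26 (adjusted p = 0.0014).

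The largest falls were led by Dhrs7c, a dehydrogenase of the sarcoplasmic reticulum, from 9.82, 17.5 and 9.67 FPKM to 1.35, 1.39 and 2.77 FPKM (-2.22 ± 0.33, adjusted p = 0.00032). Gnb3, a G protein beta subunit, fell from 33.5, 26.9 and 24.9 FPKM to 7.63, 4.89 and 4.28 FPKM (-2.18 ± 0.20, adjusted p = 3.2e-06). Both also fell without inhibitor, by 2.48 and 1.76. Ech1, an enzyme of unsaturated fatty acid breakdown, fell from 425, 356 and 357 FPKM to 171, 145 and 150.5 FPKM (-1.28 ± 0.11, adjusted p = 1.9e-06), and its change without inhibitor was -1.30 ± 0.11 (difference 0.02 ± 0.15). Igfbp3, an IGF carrier, fell by 1.39 ± 0.14 (adjusted p = 9.8e-06). Pcp4 (-2.05), the lipoxygenase Aloxe3 (-1.76), the glycerol channel Aqp7 (-1.73), the ubiquitin ligase Trim50 (-1.57) and the carrier Slc25a34 (-1.29) completed the largest falls with Angptl4. Of these, Aloxe3 stood at no more than 0.285 FPKM in any library without 50 µM Senexin A.

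Across all 10478 rows the response with 50 µM followed the other PE responses in part. Against the response without inhibitor, Pearson's r was 0.54 and Spearman's rho 0.49, with a slope of 0.41, and against that with 10 µM they were 0.64, 0.57 and 0.50. These are descriptions across genes, which are not replicates. Of the 975 rows called higher at 50 µM, 566 were also called higher without inhibitor (58.0%, and 30.2% of the 1874 called there), and 9 were called lower. Of the 525 called lower, 280 were called lower without inhibitor (53.3%, and 21.0% of 1331), and 26 higher. With 10 µM the shared rows were 694 (71.2%) and 307 (58.5%). Without inhibitor 3205 rows were called (30.6%), 17.9% higher and 12.7% lower, and with 10 µM 3408 (32.5%), 18.9% higher and 13.6% lower.

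The 260 rows (2.48%) that rose at least 2-fold without inhibitor had a median log2 fold change of 1.31 there and of 0.57 with 50 µM, where 132 were called higher and 3 lower. Read the other way, the 166 rows that rose at least 2-fold with 50 µM had a median of 1.28 there and 0.87 without inhibitor, where 133 were called higher. A set chosen for its size in 1 comparison can have a smaller median in the other for that reason too, so the values are given in both directions.

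**Figure D5:**
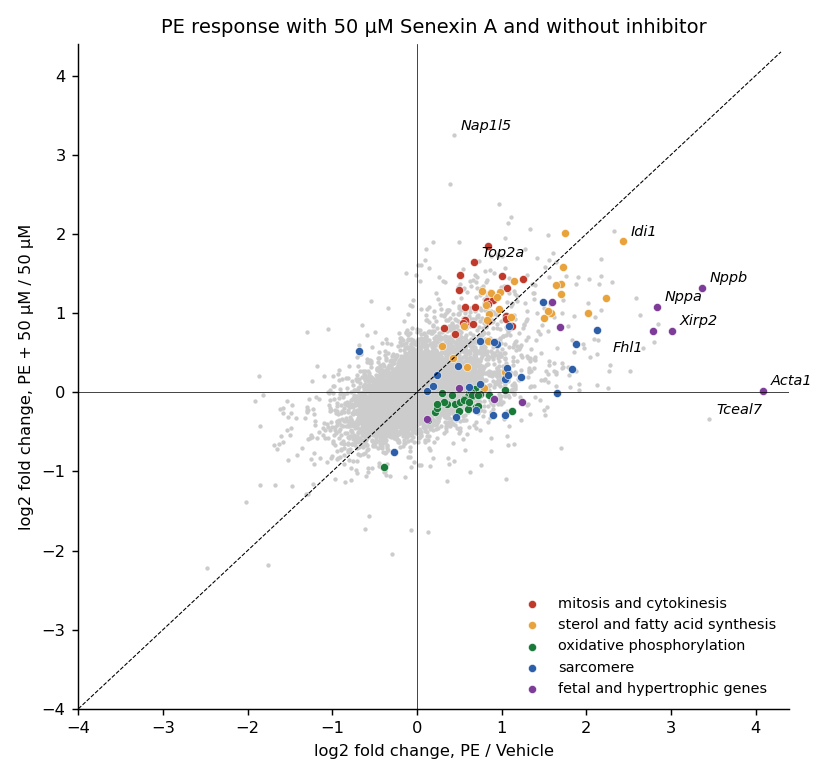
Each point is 1 row, with its log2 fold change without inhibitor on the horizontal axis and in the presence of 50 µM Senexin A on the vertical axis, and the dashed line marks equal change. All 22 mitosis genes (red) and all 28 sterol synthesis genes (orange) lie above 0 on the vertical axis, with 13 of the 28 sterol genes above the dashed line. Oxidative phosphorylation (green) lies near 0 on the vertical axis, and Acta1 at 4.09 and 0.02. Across rows r was 0.54.

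The difference between the responses with 50 µM and without inhibitor was called for 734 rows (7.01%), 499 lower (4.76%) and 235 higher (2.24%), and 1690 with the replicate block. After quantile normalization 826 were called, 487 lower and 339 higher. The difference from the response with 10 µM was called for 313 rows (2.99%), 218 lower (2.08%) and 95 higher (0.907%), and 1147 with the replicate block. Tceal7 and Bex1, relatives in the TCEAL and BEX family, were among the largest differences. Tceal7 stood at 0.947, 1.45 and 1.56 FPKM with 50 µM alone and at 0.638, 0.673 and 1.21 FPKM with PE, while without inhibitor it rose from 2.37, 0.87 and 0.784 FPKM to 18.8, 25.0 and 27.9 FPKM. Sphkap, an anchoring protein of protein kinase A, rose from 3.90, 4.15 and 5.01 FPKM to 10.6, 12.3 and 9.85 FPKM with 50 µM (1.16 ± 0.10, adjusted p = 3.2e-06). It fell by 0.54 ± 0.10 without inhibitor (adjusted p = 0.0012) and by 0.50 ± 0.10 with 10 µM (adjusted p = 0.0018), and both differences passed (adjusted p = 8.9e-06 and 2.8e-05).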

How the data were processed

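Polyadenylated RNA of 18 libraries was measured. The authors deposited FPKM values, made with Bowtie2, Cufflinks and the rn5 build per the submitters' processing notes. Versions, annotation and use of strand are not given in the sources used here. Of 17303 rows, 1881 overlap another row, and 27.4% of all values stood at a floor of 0.01 FPKM. Total reads were not used here. Steps of values under 0.2 FPKM put the libraries' depths within 0.920 to 1.23 of replicate 1 of 50 µM alone.

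The 10478 rows with at least 1 FPKM in 3 libraries entered limma 3.58.1 (trend, in R 4.3.3) on the log2(FPKM + 1) scale. The 6 groups shared a fit with 12 residual degrees of freedom, and Benjamini-Hochberg adjustment ran over all rows tested. Fold changes on this scale understate those of low genes. The median SE was 0.118, and 0.167 for a difference of responses. On data simulated for this comparison (10478 rows), 97% of changes of 1 and 58% of changes of 0.5 on the log2 scale were recovered. The changes were planted only in rows of higher level, and the noise was drawn independently for each library. Rows of low level and deviations shared by a replicate number were therefore not covered. Figures used Python 3.11.15 and matplotlib 3.10.9.

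Lists and members were chosen with earlier results of these data known. Named were the 10 largest rises and falls (called, group mean of at least 5 FPKM, groups not overlapping, with a symbol), up to 4 called members of a list with the largest change, and the 6 largest differences of each sign. A panel of fetal genes (Nppa, Nppb, Myh7, Myh6, Acta1, Atp2a2 and Ankrd1) and of kinase module genes (Cdk8, Cdk19, Ccnc, Med12 and Med13) was added. Other members were named after their values were seen, and a few genes that the rule names are not reported here.

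Replicate numbers paired the libraries. Deviations from the group means correlated by 0.213 to 0.587 for the 45 pairs that share a number, and by -0.462 to 0.095 for the 90 that do not. Deviations within a group cancel out, so positive values in the first range push those of the second downward. The second range is therefore not separate evidence. The labels do not say where this pairing comes from. They do not name separate cultures or animals either: p-values measure only the spread between samples, and it may be technical. Alternatives were quantile normalization, median-ratio scaling, a pseudocount of 0.1, a filter of 5 FPKM or none, the compared groups only, the replicate block, and each library left out.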

Additional observations from a re-analysis of the deposited data

Results flagged for a closer look

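The response to PE with 50 µM Senexin A differed from that without inhibitor in 734 rows by limma's test of the difference, and from that with 10 µM in 313 rows. The values below are these differences on the log2 scale, a positive value meaning a higher response with 50 µM.

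Against the response without inhibitor, the lowest differences were those of Acta1 (-4.07), Tceal7 (-3.79), Bex1 (-2.40), Yipf7 (-2.25), Xirp2 (-2.24) and the tubulin-binding protein Tppp (-2.20). The highest were those of Nap1l5 (2.81), Neil2 (2.24), the chemokine receptor Cxcr4 (2.07), the sterol exporter Abcg1 (2.06), Atp6ap1l (1.81) and the p38 activating kinase Map2k6 (1.79). Of these 12 genes, Nap1l5 and Neil2 rose with 50 µM and Bex1 fell (-0.71 ± 0.22, limma adjusted p = 0.043, which did not pass in 6 of 13 alternatives). For the other 9 the change with 50 µM did not pass. Abcg1, at 0.77 with 50 µM, passed with the replicate block (limma adjusted p = 0.000558). The difference of Cxcr4 did not pass without Vehicle replicate 3 (0.0541) or replicate 3 of 50 µM alone (0.0505).

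Against the response with 10 µM, the lowest differences were those of Acta1 (-2.23), Tceal7 (-2.11), Pgam2 (-1.86), Aloxe3 (-1.65), Sypl2 (-1.61) and the lactate transporter Slc16a3 (-1.57). The highest were those of Testin (2.47), Nap1l5 (2.09), Csrp2 (1.84), the pseudokinase Trib1 (1.81), the integrin subunit Itgb8 (1.77) and Sphkap (1.66). Trib1 rose with 50 µM (0.67, limma adjusted p = 0.0094, with 0.0618 in the compared groups alone and 0.0567 without replicate 1 of PE with 50 µM) and fell with 10 µM (-1.14, adjusted p = 6.7e-05). Testin changed by -0.10 with 50 µM and fell by 2.57 with 10 µM, and its difference did not pass in 10 of 19 alternatives. The difference of Pgam2 did not pass without replicate 2 or 3 of 10 µM alone, replicate 1 of PE with 10 µM, replicate 3 of 50 µM alone or replicate 1 of PE with 50 µM (limma adjusted p = 0.0506 to 0.0645). That of Aloxe3 did not pass at a pseudocount of 0.1 (0.143).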

How the results depend on the processing

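With the replicate number as a block, 2491 rows were called in the response with 50 µM (1481 higher, 1010 lower), 1690 in the difference from the response without inhibitor and 1147 in the difference from that with 10 µM. Beside the gains given with the results, the block let Sypl2 pass (limma adjusted p = 0.0382), and it changed no other call of a named gene in the response with 50 µM. The compared groups alone gave 720 calls (493 higher, 227 lower), and 104 in the difference from 10 µM. A pseudocount of 0.1 gave 290 called changes of at least 2-fold. Pearson's r with the response without inhibitor was 0.497 at a pseudocount of 0.1 and 0.561 with a filter of 5 FPKM. The cause of these shifts was not tested. Leaving out 1 library gave 945 to 1315 calls (637 to 881 higher, 308 to 434 lower), 392 to 921 in the difference from no inhibitor and 121 to 460 in that from 10 µM. For the difference from no inhibitor, the count fell by over 1.5 times without Vehicle replicate 2 (480) or 3 (392), PE replicate 1 (400) or 2 (450), replicate 2 of 50 µM alone (448), or replicate 1 (428) or 3 (477) of PE with 50 µM. For that from 10 µM, the count was 150 without replicate 2 and 121 without replicate 3 of 10 µM alone, 135 and 156 without replicates 1 and 2 of PE with 10 µM, 143 without replicate 3 of 50 µM alone, and 133 and 140 without replicates 1 and 3 of PE with 50 µM. Of 128 named genes, 78 kept their side of the threshold in the response with 50 µM under every alternative run, and 0 reversed.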

Other observations

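Several genes of calcium handling and excitation were called with PE in the presence of 50 µM Senexin A, in numbers near the shares over all rows (9.31% higher and 5.01% lower). Of 13 calcium handling genes 2 rose and 1 fell, and 4 fell with the replicate block and 3 without replicate 1 of 50 µM alone. Slc8a1, the sodium-calcium exchanger, rose by 0.72 ± 0.10 (limma adjusted p = 0.00012), with 0.74 without inhibitor. Hrc, a calcium-binding protein of the sarcoplasmic reticulum, fell by 0.83 ± 0.15 (adjusted p = 0.0011), and its response differed from that without inhibitor by -1.03 (adjusted p = 0.0077). Of 15 ion channel genes 2 rose and 2 fell, and 5 rose and 4 fell with the replicate block. The number that rose was 0 without replicate 1 of PE with 50 µM, and 1 without its replicate 3 or without replicate 1 of 50 µM alone. Gja1, the gap junction protein connexin 43, changed by -0.14 and was not called, where without inhibitor it fell by 0.85.

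Among 18 cardiac transcription factors and metabolic coactivators 3 rose and 2 fell, where 9.31% of all rows rose and 5.01% fell. Over the alternatives 0 to 6 rose and 1 to 3 fell, with 0 rising in the compared groups alone and 1 without replicate 1 of 50 µM alone or without replicate 1 or 3 of PE with 50 µM. Rxra, a partner of nuclear receptors, fell by 0.58 ± 0.14 (limma adjusted p = 0.013), which did not pass without replicate 3 of 50 µM alone (0.0644). Of 25 tested genes of the ATF4 and CHOP stress response 2 rose and 1 fell, near the shares over all rows, with a median of 0.05. The hormone Fgf21, a target of the ATF4 stress response, fell by 1.06 ± 0.19 (limma adjusted p = 0.0012, and 0.225 at a pseudocount of 0.1). Npr3, the clearance receptor of natriuretic peptides, fell by 0.79 ± 0.19 (limma adjusted p = 0.01, and 0.0563 without replicate 1 of PE with 50 µM), with -0.87 without inhibitor.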
